A study of Mus musculus with 12 samples.

Results

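Severe and moderate FSHD-like model mice share a genotype and differ in their dose of tamoxifen (TMX), and their gastrocnemius muscles were compared here with 3 mice per model. The members were chosen by their labels: 3 mice of the severe model (1047, 1066 and 1079) and 3 mice of the moderate model (1236, 1308 and 1331), which are 6 of the 12 mice sequenced. Both models were FLExDUX4/+;MCM/+, that is, hemizygous for the FLExDUX4 (FLExD) conditional human DUX4 transgene and for ACTA1-MCM, whose skeletal muscle actin promoter drives MerCreMer, a Cre recombinase that tamoxifen activates. Moderate mice received 1 intraperitoneal injection of 5 mg/kg TMX, and severe mice received 2 injections of 10 mg/kg on consecutive days. The single dose is called moderate in the sample names, as here, and mild in the description of the treatment. Muscles were taken at 13 weeks of age, 9 days after TMX. ACTA1-MCM/+ mice (the control) and FLExDUX4/+ mice (FLExD), 3 of each and all without TMX, serve here for reference levels. They also entered the same statistical fit, where they contribute to the filter on low counts and to the spread behind each p-value. Recombination in these models is mosaic, so each muscle holds nuclei with and without a recombined DUX4 transgene. The paper reports that DUX4 protein in the tibialis anterior had passed its peak by the day of sampling in severe mice. In moderate mice the reported peak came after that day. The models may therefore have been sampled at different stages relative to this peak, which was measured in another muscle. The dose of TMX, the resulting share of recombined nuclei and the stage at day 9 cannot be told apart as sources of a difference. The question that the comparison addresses is what changes in muscle RNA between a moderate and a severe DUX4 myopathy on the same genetic background.

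DUX4 is a double homeobox transcription factor of the cleavage-stage embryo that is silenced in adult muscle, and its aberrant expression in muscle fibers causes facioscapulohumeral muscular dystrophy (FSHD). DUX4 is toxic to the fibers that express it. Damaged skeletal muscle is cleared by macrophages and rebuilt by satellite cells, which divide, differentiate under the myogenic regulators Myod1 and myogenin, fuse, and pass through embryonic and perinatal sarcomere isoforms before the adult isoforms return.

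The scaling between libraries decides part of what follows, since a few abundant genes filled a different part of the libraries in each model. Total counts were 26871186 to 28917274 in the moderate and 23796902 to 24448547 in the severe mice. The 20 genes with the largest share in moderate muscle took 47.8% to 49.7% of the counts there and 30.7% to 33.5% in severe muscle. Unless stated otherwise, levels are in CPM, the count per 1000000 counts of library size, after adjustment of the library sizes by edgeR's trimmed mean of M-values (TMM), whose factors were 1.06 to 1.13 in the moderate and 1.69 to 1.87 in the severe mice. On this scale the median log2 fold change of all genes tested was 0.02, and with library size alone it was 0.72, so a gene at a log2 fold change of 0 with TMM took a larger share of the counts in severe muscle. The 3 counts taken as the floor of detection correspond to 0.0676 to 0.103 CPM in these 6 mice. The library protocol names random priming and no step that keeps strand, so reads of a gene and of an antisense partner cannot be told apart. All values are given in the order 1236, 1308 and 1331 for moderate and 1047, 1066 and 1079 for severe mice.

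Among 16679 genes tested, 2943 were called higher in severe than in moderate muscle (17.6%) and 3139 lower (18.8%), by edgeR's quasi-likelihood F-test with calls made where the Benjamini-Hochberg adjusted p was under 0.05 and the log2 fold change was 0.5 or more in either direction. The 3 severe and 3 moderate values did not overlap at 61.3% of the genes tested. Absolute log2 fold changes reached 1 in 1356 higher and 1391 lower genes, 2 in 165 and 275, and 3 in 14 and 54. The 95% interval of the log2 fold change lay within -0.5 to 0.5 for 3832 genes (23.0%). Genes called lower took 66.1, 71.1 and 70.8% of all counts in the moderate mice and 42.7, 49.1 and 48.0% in the severe mice. Genes called higher took 4.67, 3.98 and 3.94% of the counts in the moderate and 15.3, 12 and 11.9% in the severe mice, so the genes that fell held far more of the RNA than those that rose. In bulk muscle, a change in the number of cells or fibers of a type and a change in RNA per cell cannot be told apart, which holds for every list below.

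Calls were not stable to the scaling. When library size alone was used, all 2943 higher genes were called higher as well, but only 823 of the 3139 lower genes were called lower. Under that scaling 57.8% of all genes tested were higher and 4.93% lower, the shares against which list counts with library size alone are to be read. Over 5 scalings (TMM, median of ratios, upper quartile, library size, and library size without 20 genes), 2918 genes were higher and 823 lower in each. For the lists below, the count with library size alone is therefore given beside the main one where it differs. Severe mouse 1047 lay farthest from the moderate group in 77.6% of the higher and 81.4% of the lower genes, and without it 2300 genes were higher and 2572 lower.

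**Figure D1:**
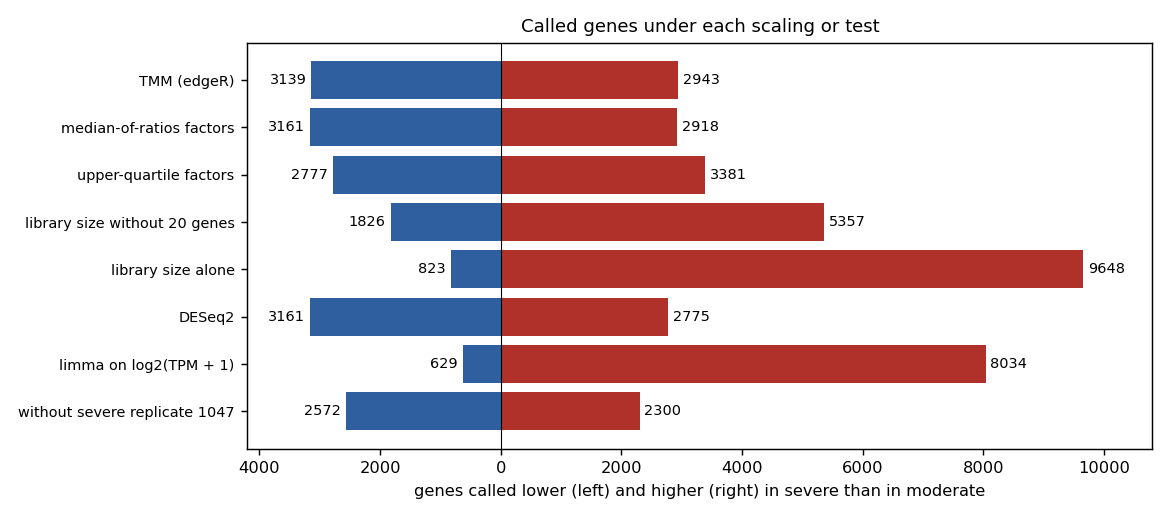
Number of genes called higher (right, red) and lower (left, blue) in severe than in moderate muscle under each scaling or test. TMM, median-of-ratios and upper-quartile scaling give between 2777 and 3161 lower genes, and library size alone gives 823 lower and 9648 higher genes.

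Ranked by fold change over called genes without overlap between the groups, the 10 that fell furthest included the slow-fiber sarcomere genes Myl2, Myl3 and Myh7. Myl2, the slow and cardiac regulatory myosin light chain (chr5:122100951-122113472 in GRCm38), measured 13.6, 52.7 and 11.2 CPM in the moderate and 0.225, 0.236 and 0.725 CPM in the severe mice (log2 fold change -6.03, standard error 1.14, edgeR adjusted p = 0.0020). Smco1, a membrane protein gene listed as 2310010M20Rik (chr16:32271468-32274781), had 5.21, 7.93 and 8.94 CPM in the moderate and 0.180, 0.472 and 0.217 CPM in the severe mice (log2 fold change -4.65, standard error 0.27, edgeR adjusted p = 2.8e-07). The groups were far apart, with moderate muscle in between severe muscle and the control mean of 35.1 CPM. Kcng4, a potassium channel subunit, fell from 2.65, 4.14 and 5.74 CPM to 0.180, 0.142 and 0.314 CPM. The lincRNA 2310065F04Rik lies at chr11:67112461-67120080, between the embryonic myosin heavy chain gene Myh3 and the fast gene Myh4. This lincRNA went from 9.72, 17.4 and 13.7 CPM to 0.699, 0.849 and 1.21 CPM (log2 fold change -3.89, standard error 0.24, edgeR adjusted p = 5.4e-07). Ighm, the immunoglobulin mu heavy chain, had a moderate level of 50.6, 49.5 and 54.8 CPM, above the control mean of 18.6 CPM, and a severe level of 3.31, 4.01 and 3.19 CPM, below it (log2 fold change -3.88, standard error 0.30, edgeR adjusted p = 3.1e-06). The remaining genes of this set were Lrrc52, Gm10032 and the processed pseudogene Gm5559, whose reads may be shared with its parent gene.

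The 10 genes with the largest rise by the same rule were low in moderate muscle. Smim6, listed as 1110017F19Rik, measured 0.126, 0.207 and 0.196 CPM in the moderate and 1.87, 1.06 and 2.03 CPM in the severe mice (log2 fold change 3.21, standard error 0.46, edgeR adjusted p = 6.8e-05). Tnn, which encodes the matrix protein tenascin N, rose from 0.158, 0.103 and 0.294 CPM to 2.34, 0.991 and 1.64 CPM, and Fbn2, the fibrillin of developing microfibrils, from 1.29, 1.48 and 0.685 CPM to 14, 5.38 and 4.32 CPM. Severe mouse 1047 was the highest for both. Pmaip1, the BH3-only gene also called Noxa, rose from 0.284, 0.241 and 0.294 CPM to 2.73, 1.46 and 1.98 CPM (log2 fold change 2.89, standard error 0.35, edgeR adjusted p = 1.7e-05). R3hdml, Ctrb1, Nts, Nptx1, Cemip and Dusp9 made up the rest of the 10, with log2 fold changes of 2.75 to 3.08, and each was at or below 0.177 CPM on average in control muscle.

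**Figure D2:**
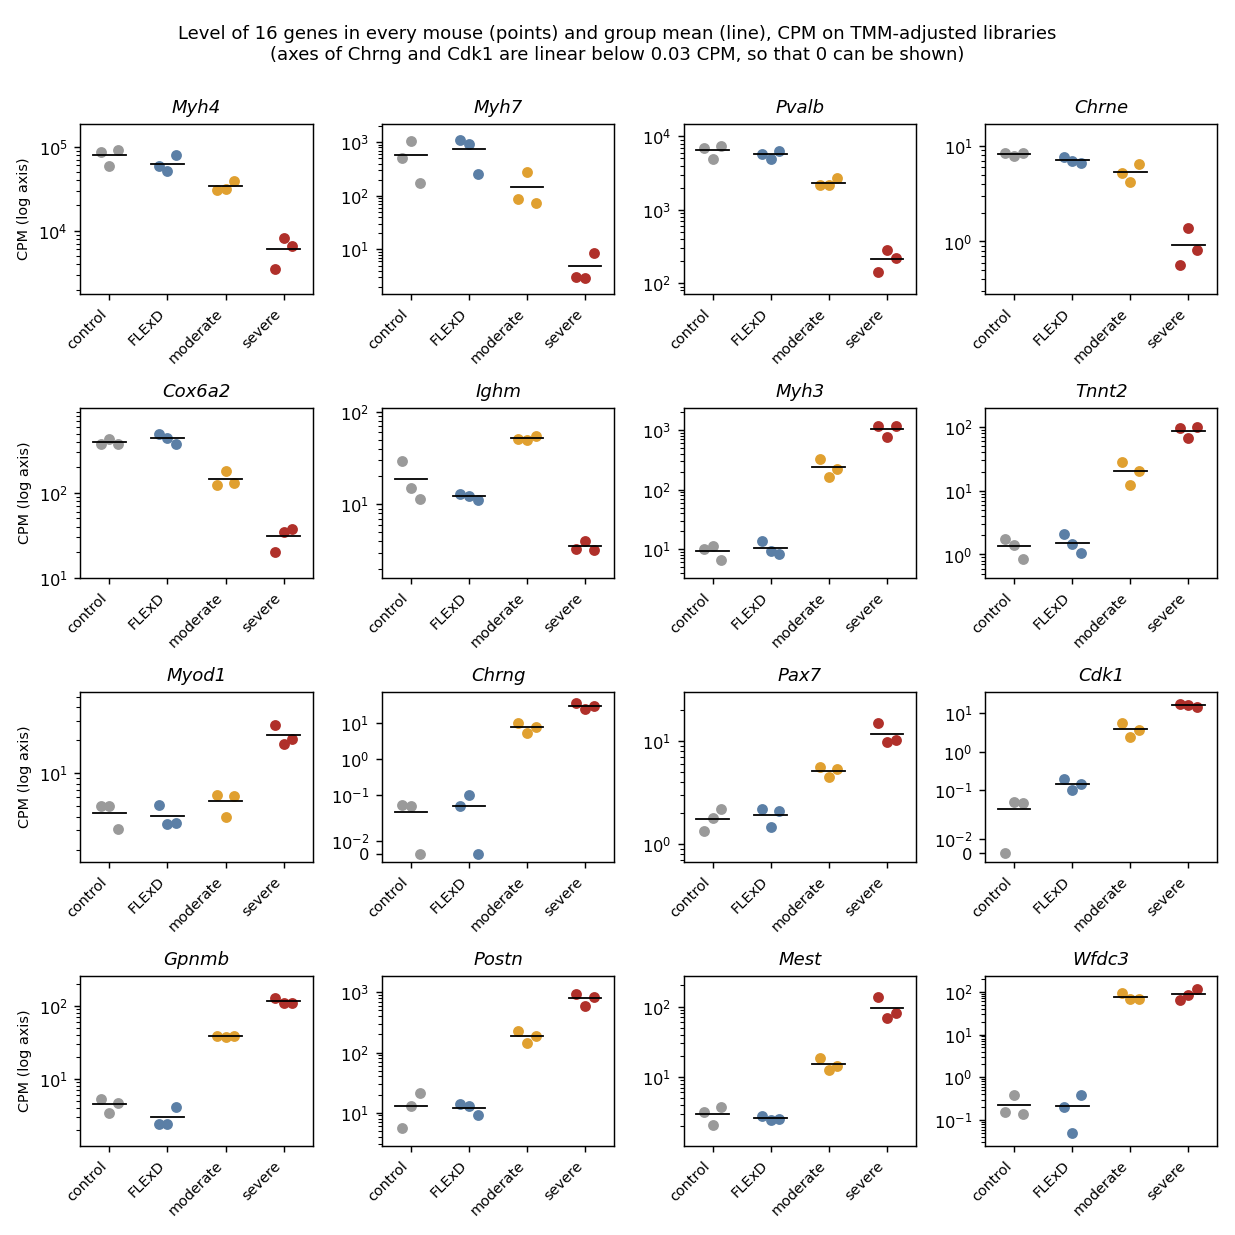
CPM of 16 genes in each of the 12 mice (points) with the group mean (black line), on log axes, for control, FLExD, moderate and severe mice. Moderate and severe mice do not overlap for 15 of these genes, and they do for Wfdc3, where the severe values of 62.6 to 116 CPM span the moderate values of 68.0 to 91.8 CPM.

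Adult fast-fiber sarcomere genes fell throughout. All 15 of 15 tested were lower in severe muscle with TMM and 15 with library size alone, with a median log2 fold change of -2.07 against 0.02 for all genes tested. Myh4, the fast IIb myosin heavy chain (chr11:67238029-67260446) and the main myosin of this muscle, measured 30419.6, 31621 and 38812 CPM in the moderate and 3545, 8146 and 6622 CPM in the severe mice (log2 fold change -2.46, standard error 0.31, edgeR adjusted p = 2.4e-05). Severe mouse 1047 was the lowest, and the groups were far apart. Mybpc2, the fast myosin-binding protein C, fell from 1876, 1851 and 2487 CPM to 186, 375 and 301.8 CPM. Acta1, skeletal alpha-actin, fell from 5986, 6341 and 6689 CPM to 1636, 1782 and 2109 CPM (log2 fold change -1.78, standard error 0.17, edgeR adjusted p = 2.9e-06). This gene also provides the promoter of the Cre transgene. Tnnt3, the fast troponin T, had a log2 fold change of -2.14 ± 0.21 (± standard error) and Tnni2, the fast troponin I, of -1.98 ± 0.22. Myh2, the fast IIa myosin heavy chain, was uneven among moderate mice at 273, 1099 and 225 CPM, against 25, 22.6 and 96.5 CPM in severe mice, and its call was lost without severe mouse 1047 (edgeR adjusted p = 0.052).

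Slow-fiber genes did not move as a set. Of 11 tested, 4 were lower and 1 higher (with library size alone, 1 higher and 3 lower). Those lower included Myl2, described above, and Myh7, the slow myosin heavy chain, at 86.6, 275 and 73.4 CPM in the moderate and 3.09, 2.95 and 8.62 CPM in the severe mice (log2 fold change -4.89, standard error 0.98, edgeR adjusted p = 0.0027). Myl3, the slow essential light chain, measured 16.7, 51.1 and 12.4 CPM in the moderate and 0.451, 0.425 and 1.26 CPM in the severe mice. Moderate mouse 1308 was above its group for both Myh7 and Myl3, and the lowest moderate value exceeded the highest severe value. Myh7 also varied between mice without TMX. Its share of the summed TPM of sarcomeric myosin heavy chains was 0.477, 1.31 and 0.152% in control mice 1127, 1246 and 1349. In FLExD mice 1358, 1367 and 1378 it was 1.28, 1.28 and 0.265%. Tnnt1, the slow troponin T, measured 50.8, 76.2 and 32.9 CPM in the moderate and 63, 47.2 and 73.7 CPM in the severe mice, which overlapped, with a log2 fold change of 0.20 (95% interval -1.37 to 1.77). Atp2a2, the slow-fiber and cardiac calcium pump, had a log2 fold change of 0.05 (95% interval -1.18 to 1.29), and its interval spans both directions.

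Of 14 embryonic and perinatal sarcomere genes, 5 rose (Myh3, Tnnt2, Myh8, Myl4 and Myl6b) and 2 fell (Actn2 and Actc1) with TMM, with a median log2 fold change of 0.85. With library size alone 7 were higher and 0 lower. Myh3, the embryonic myosin heavy chain (chr11:67078300-67102291), measured 328, 166 and 221 CPM in the moderate and 1176, 775 and 1159 CPM in the severe mice (log2 fold change 2.12, standard error 0.28, edgeR adjusted p = 8.1e-05), against a control mean of 9.32 CPM. Tnnt2, the cardiac and embryonic troponin T, rose from 27.8, 12.2 and 20.8 CPM to 96.4, 67.1 and 99.2 CPM (log2 fold change 2.11, standard error 0.28, edgeR adjusted p = 0.00014). Myh8, the perinatal myosin heavy chain, rose from 211, 131 and 158 CPM to 439, 361 and 449 CPM, a smaller log2 fold change of 1.32 ± 0.17. Moderate mouse 1308 was the lowest and 1236 the highest in its group for all of these. Actc1, the cardiac alpha-actin of early muscle, measured 572, 582 and 581 CPM in the moderate and 406, 277 and 375 CPM in the severe mice. Its fall was close to the threshold (log2 fold change -0.71 ± 0.27, edgeR adjusted p = 0.046), was lost in 9 of 12 fits that left out 1 mouse (it was kept without control mouse 1127 or 1349 or FLExD mouse 1358, with edgeR adjusted p up to 0.15 over the 12), and was -0.01 with library size alone. The fall of Actn2, an alpha-actinin of the Z-disc, was lost without any of moderate 1236, 1308 or 1331 or severe 1047 or 1066 (edgeR adjusted p up to 0.14), and without each of these 5 mice neither gene was called.

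Ratios between related genes within a mouse need no scaling between libraries, and they were taken for 29 pairs of a developmental, slow or widely expressed gene over its adult fast or muscle counterpart, as log2 of (TPM + 0.1). In 28 of 29 pairs the ratio was higher in every severe than in every moderate mouse. In 0 pairs it was lower in every severe mouse, and in 1 pair (Myh2 over Myh4) the groups overlapped. For single genes, the groups did not overlap, in either direction, at 61.3% of the genes tested. Most second genes of the pairs were called lower with TMM. Several recur (Myh4, Acta1, Tnnt3, Pygm and Pfkm), so the pairs are not independent. Fbp1 over Fbp2 rests on at most 7 counts of Fbp1 in a moderate or severe mouse. With 3 mice against 3 an exact two-sided permutation test cannot give a p under 0.10, and these 28 pairs each gave 0.10 (0.104 after adjustment over the pairs). Myh3 over Myh4 was -6.62, -7.70 and -7.55 in the moderate and -1.66, -3.47 and -2.65 in the severe mice, a difference of 4.69. Chrng over Chrne, the fetal gamma over the adult epsilon subunit of the acetylcholine receptor, was 0.68, 0.15 and 0.02 in the moderate and 5.41, 3.81 and 4.70 in the severe mice, a difference of 4.36. The subunits were near equality per length in moderate muscle, and the fetal subunit was in excess in severe muscle. Ckb over Ckm, the brain over the muscle creatine kinase, differed by 4.19.

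Metabolic pairs had the same direction. Eno1 over Eno3, the widespread over the muscle enolase, was -5.08, -5.32 and -5.34 in the moderate and -1.42, -2.34 and -2.45 in the severe mice. Cox6a1 over Cox6a2, the widespread over the heart and muscle isoform of a cytochrome c oxidase subunit, was -2.34, -3.05 and -2.89 in the moderate and 0.85, -0.09 and -0.17 in the severe mice, which placed the isoforms near parity in severe muscle. The ratio of Slc25a5 to Slc25a4, adenine nucleotide carriers of the mitochondrial inner membrane, differed by 2.62 and that of Cpt1a to Cpt1b, the liver and muscle carnitine palmitoyltransferases, by 2.77. In these 4 pairs the first gene was called higher and the second lower with TMM scaling. Utrn over Dmd, utrophin over dystrophin, differed by 1.17. At the small end, Gys2 over Gys1 differed by 0.66, where Gys2 had 0 counts in every severe mouse and the difference became -0.49 with counts in place of TPM.

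**Figure D3:**
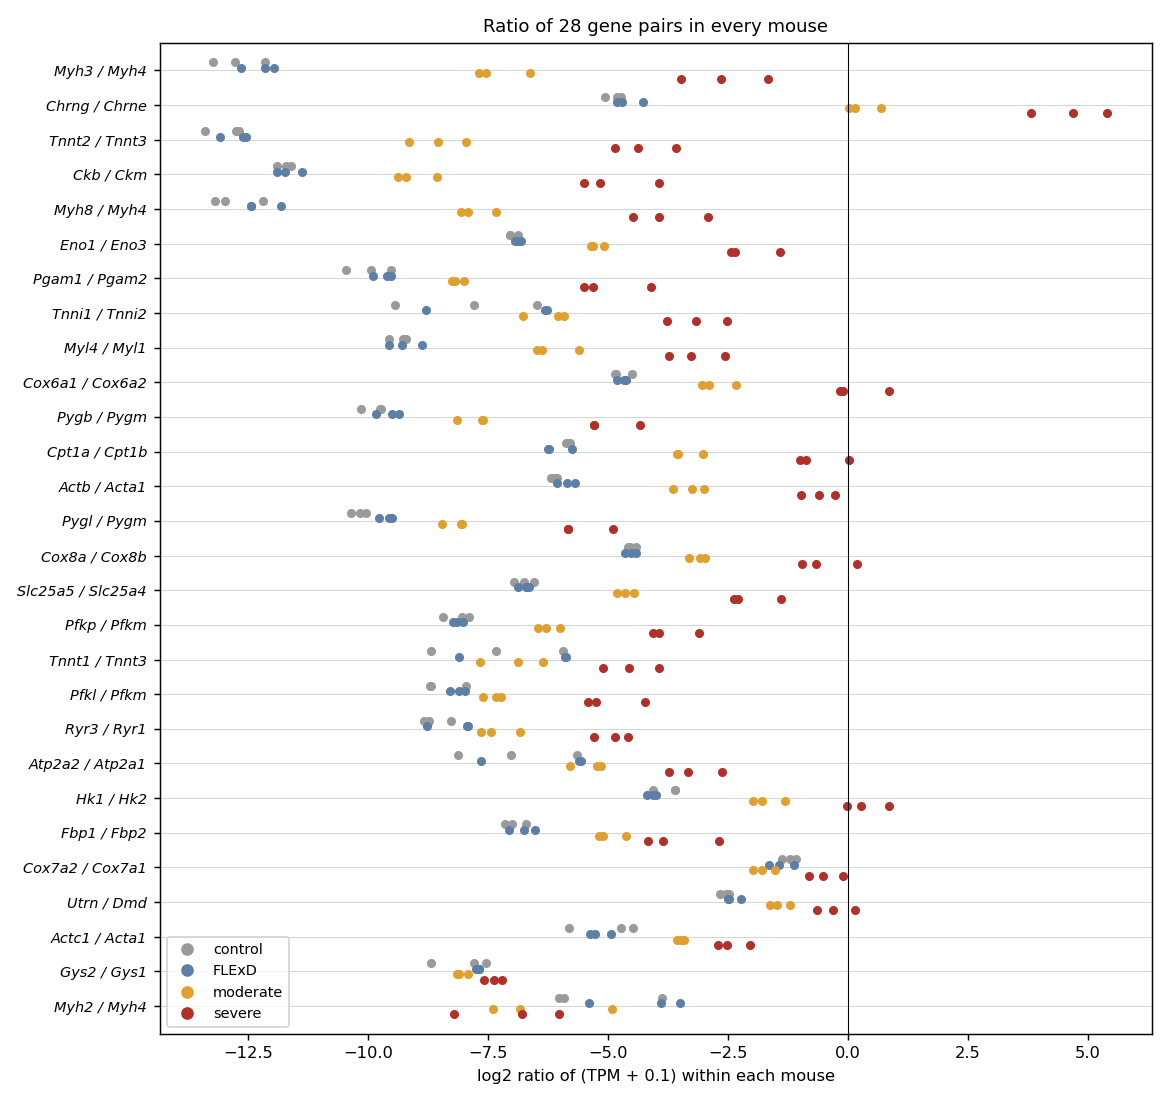
Log2 ratio of (TPM + 0.1) for 28 of the 29 gene pairs (rows) within each mouse, colored by group and ordered by the difference between severe and moderate mice. Severe mice (red) lie to the right of moderate mice (orange) in every row except Myh2 over Myh4, at the bottom, where they overlap.

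The composition of 3 gene families shows the same values as shares of the family's summed TPM, which accounts for gene length. Among 6 sarcomeric myosin heavy chains, Myh3 made up 0.926, 0.412 and 0.494% in the moderate and 18.9, 7.23 and 11.1% in the severe mice, and Myh8 0.563, 0.320 and 0.384% in the moderate and 7.95, 3.59 and 4.58% in the severe mice. Myh4 made up 91.1, 85.8 and 92.8% in the moderate and 59.6, 80.2 and 69.97% in the severe mice. In controls the mean share of Myh3 was 0.0132% and that of Myh4 91%. Among 5 acetylcholine receptor subunits, the share of Chrna1, the alpha subunit, was 49.96, 43.6 and 45.7% in the moderate and 62.7, 60.6 and 60.7% in the severe mice and that of Chrne 4.41, 5.24 and 6.65% in the moderate and 0.340, 0.828 and 0.474% in the severe mice. Severe mouse 1066 was nearest to the moderate mice for Myh3, Myh4, Myh8 and Tnnt2, and 1047 was the farthest.

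**Figure D4:**
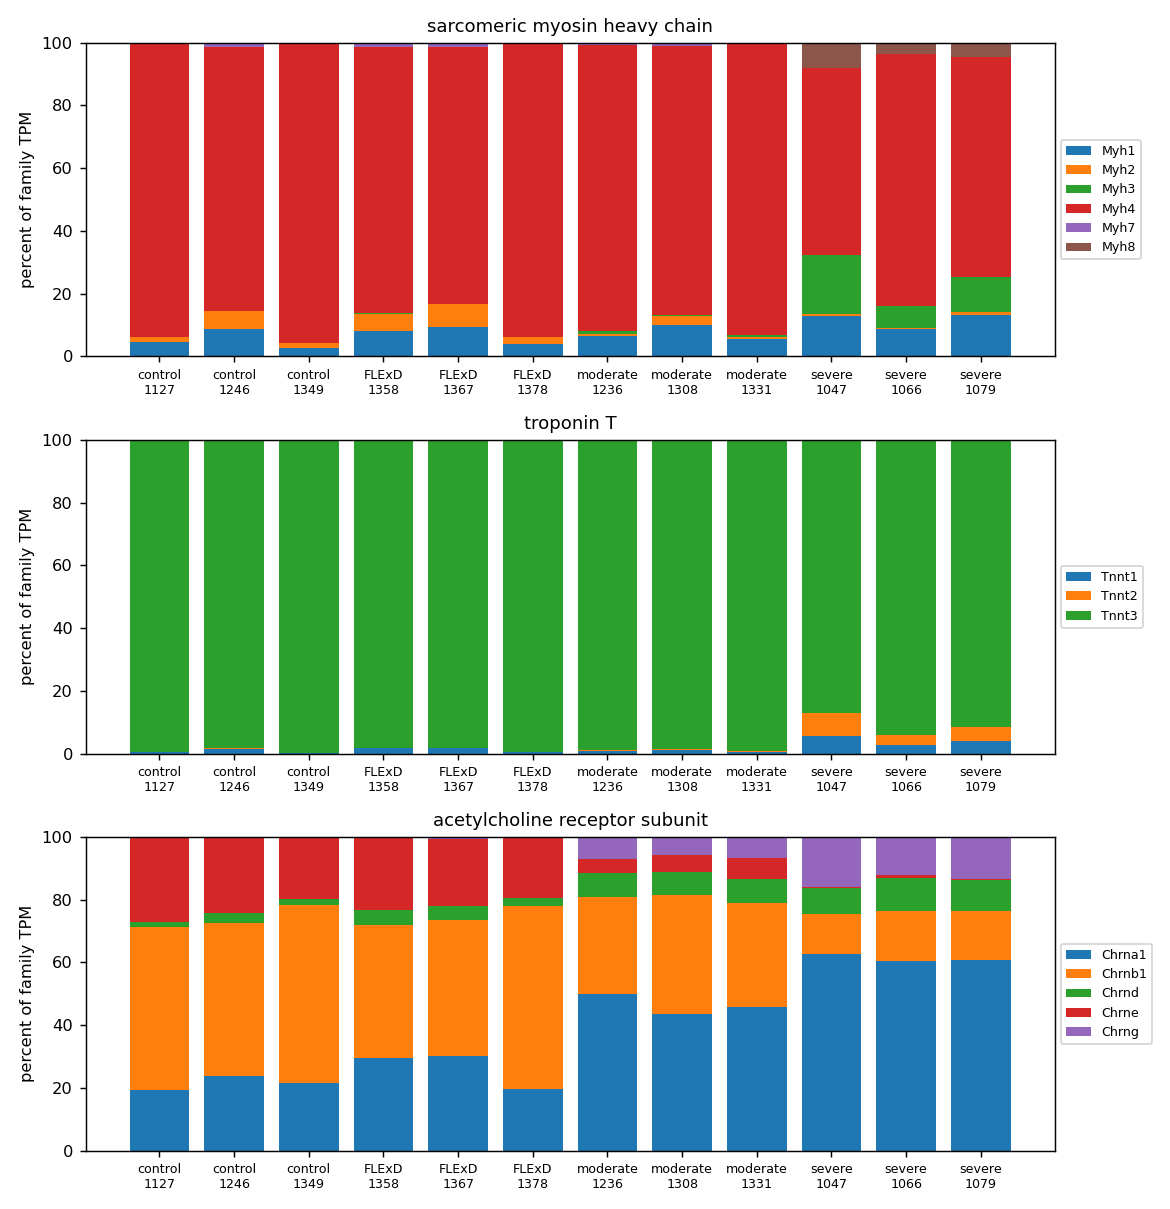
Share of each member in the summed TPM of sarcomeric myosin heavy chains, troponin T genes and acetylcholine receptor subunits, in percent, for each of the 12 mice. The bars of the 3 severe mice hold 7.23% to 18.9% Myh3 and 0.34% to 0.83% Chrne, against 0.41% to 0.93% and 4.41% to 6.65% in the moderate mice.

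Genes of the Z-disc, titin and the sarcolemma were lower in 13 of 19 cases and higher in 0 (with library size alone, 8 lower and 1 higher). Tcap, the titin cap protein telethonin, fell from 256, 469 and 332 CPM to 24.1, 39.6 and 43.9 CPM (log2 fold change -3.30, standard error 0.28, edgeR adjusted p = 2.2e-06). Ttn, titin, fell from 40032, 57949.8 and 47749 CPM to 15733, 22439 and 18238 CPM, a log2 fold change of -1.37 ± 0.24. Dmd, dystrophin, had a log2 fold change of -0.91 ± 0.13 with TMM and -0.22 with library size alone, where it was not called. Flnc, filamin C, measured 1053, 1300.4 and 848 CPM in the moderate and 888, 845 and 902 CPM in the severe mice, which overlapped (log2 fold change -0.28, 95% interval -0.59 to 0.03).

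Excitation-contraction coupling genes fell in 15 of 16 cases with TMM and in 13 with library size alone. The exception with TMM was Sln, sarcolipin, which regulates the calcium pump (log2 fold change -0.31, edgeR adjusted p = 0.43). Pvalb, the calcium buffer parvalbumin of fast fibers, fell from 2169, 2190.0 and 2682 CPM to 143, 283 and 218 CPM (log2 fold change -3.45, standard error 0.25, edgeR adjusted p = 7.2e-07). Clcn1, the muscle chloride channel, fell from 39.9, 57.3 and 53.3 CPM to 4.40, 11.4 and 10.2 CPM. Levels of Atp2a1, the fast calcium pump SERCA1, were 6884, 7618 and 8839 CPM in the moderate and 1200.3, 2331 and 2038 CPM in the severe mice, and Ryr1, the calcium release channel, had a log2 fold change of -1.51 ± 0.17.

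Genes of the neuromuscular junction and of denervated muscle had calls in both directions, 6 higher and 3 lower of 14 (with library size alone, 9 higher and 2 lower). The share called lower with TMM was near that of all genes tested (21.4% against 18.8%). Chrng measured 9.59, 5.31 and 7.51 CPM in the moderate and 35.3, 24.1 and 29.6 CPM in the severe mice (log2 fold change 1.99, standard error 0.20, edgeR adjusted p = 6.9e-06), against a control mean of 0.0333 CPM. Ncam1, an adhesion molecule of regenerating and denervated fibers, rose from 30.8, 24.3 and 29.3 CPM to 113, 75.8 and 82.9 CPM. Chrna1, Chrnd and Runx1 rose as well, with log2 fold changes of 1.30 to 1.33. Lower were Chrne, at 5.17, 4.21 and 6.53 CPM in the moderate and 0.564, 1.37 and 0.821 CPM in the severe mice (log2 fold change -2.53, standard error 0.24, edgeR adjusted p = 3.3e-06), Ache, acetylcholinesterase (log2 fold change -1.40), and Gadd45a (log2 fold change -0.95). For the postsynaptic organizers Musk, Rapsn, Lrp4 and Dok7 no call was made, with log2 fold changes between -0.35 and 0.38.

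Myogenic regulators and fusion genes moved in both directions. Of 14, 6 were higher (Mymx, Myod1, Mymk, Myog, Myf5 and Cdh15) and 4 lower (Mef2c, Tmem182, Des and Myf6), and with library size alone 9 were higher and 1 lower. Myod1, the myoblast determination factor, measured 6.34, 4.0 and 6.20 CPM in the moderate and 27.4, 18.5 and 20.4 CPM in the severe mice (log2 fold change 2.0, standard error 0.22, edgeR adjusted p = 1.3e-05). The control mean of 4.34 CPM lay within the moderate range and below every severe mouse. Myog, myogenin, rose from 32.9, 21.9 and 25.6 CPM to 92.5, 70.4 and 81.2 CPM (log2 fold change 1.60, standard error 0.17, edgeR adjusted p = 8.4e-06). Mymk and Mymx, the fusion proteins myomaker and myomixer, rose from 7.76, 3.66 and 6.56 CPM to 28.7, 16.7 and 24.3 CPM and from 2.33, 1.28 and 2.71 CPM to 14.3, 8.49 and 10.6 CPM. Mef2c, a factor of maturing fibers, fell from 866, 778 and 981 CPM to 274, 417 and 418 CPM (log2 fold change -1.24, standard error 0.15, edgeR adjusted p = 2.2e-05), and Myf6, the regulator of mature fibers, had a log2 fold change of -0.71.

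Satellite cell genes were higher in 8 of 13 cases and lower in 1 (Cd34, which endothelial cells and fibroblasts also express). With library size alone 10 were higher and 0 lower. Pax7, the factor that defines these cells, measured 5.62, 4.45 and 5.32 CPM in the moderate and 14.9, 9.79 and 10.3 CPM in the severe mice (log2 fold change 1.19, standard error 0.19, edgeR adjusted p = 0.00014). Megf10, an engulfment receptor of satellite cells, rose from 3.12, 2.76 and 3.17 CPM to 13.2, 11.2 and 10.8 CPM and Fgfr4 from 3.25, 3.59 and 3.23 CPM to 16.1, 10.3 and 10.9 CPM. Calcr, which marks quiescent satellite cells, had a log2 fold change of -0.10 and was not called (edgeR adjusted p = 0.82). The list summed to 184 to 203 CPM in the moderate and 272 to 316 CPM in the severe mice.

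Imprinted growth genes, which regenerating and fetal muscle express, were higher in 9 of 12 cases and lower in 0 (with library size alone, 10 higher and 0 lower). Mest rose from 18.7, 12.4 and 14.5 CPM to 136, 68.7 and 80.8 CPM (log2 fold change 2.64, standard error 0.26, edgeR adjusted p = 1.2e-05), with severe mouse 1047 above the others. Cdkn1c, the cyclin-dependent kinase inhibitor p57, rose from 29.7, 17.4 and 26 CPM to 103, 71.4 and 99.7 CPM. Igf2, insulin-like growth factor 2, rose from 66.1, 43.6 and 59.9 CPM to 168, 116 and 138 CPM. H19, the noncoding gene next to Igf2, measured 2428, 2372 and 2326 CPM in the moderate and 1337, 1568 and 2050.4 CPM in the severe mice, lower in every severe mouse but not called (log2 fold change -0.52, edgeR adjusted p = 0.25), and 0.16 with library size alone.

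Cell division genes rose almost throughout. Of 28 mitotic genes, 27 were higher and 0 lower, with a median log2 fold change of 1.75, and the same count held with library size alone and in every fit that left out 1 mouse. Cdk1, the mitotic kinase, measured 5.39, 2.45 and 3.69 CPM in the moderate and 17.2, 15.8 and 13.9 CPM in the severe mice (log2 fold change 2.02, standard error 0.21, edgeR adjusted p = 6.9e-06). Its partner Ccnb1, cyclin B1, rose from 5.39, 3.34 and 3.75 CPM to 19.5, 18 and 15.8 CPM (log2 fold change 2.09, standard error 0.18, edgeR adjusted p = 2.1e-06). The proliferation marker Mki67 rose from 37, 34.4 and 31.6 CPM to 131, 101 and 93.1 CPM. Control means of Cdk1 and Mki67 were 0.0319 and 1.02 CPM. Aurka, aurora kinase A, was the member not called (log2 fold change -0.30, 95% interval -0.64 to 0.05). Together the mitotic genes took 0.0242, 0.0183 and 0.0189% of all counts in the moderate and 0.118, 0.0980 and 0.0885% in the severe mice.

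DNA replication and G1/S genes rose in 23 of 25 cases with a smaller median of 1.15 (with library size alone, 24 rose). Rrm2, the regulated subunit of ribonucleotide reductase, measured 8.05, 5.07 and 8.58 CPM in the moderate and 40.2, 35.9 and 29.9 CPM in the severe mice (log2 fold change 2.29, standard error 0.20, edgeR adjusted p = 2.9e-06), and Mcm2, a subunit of the replicative helicase, 7.29, 7.52 and 6.07 CPM in the moderate and 18.7, 18.2 and 14.2 CPM in the severe mice. Ccne1, cyclin E1, rose from 2.08, 2.0 and 2.09 CPM to 7.39, 5.19 and 5.02 CPM. The members not called were Pcna, the polymerase clamp, whose groups did not overlap (40.1, 36.7 and 36.3 CPM in the moderate and 53.9, 55.1 and 50.5 CPM in the severe mice) but whose log2 fold change of 0.497 fell just short of the threshold (edgeR adjusted p = 0.00050), and Rrm1 (log2 fold change -0.28).

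Promoters of mitotic genes commonly hold a CCAAT box (CCAAT, bound by the factor NF-Y) and a cell cycle homology region (CHR, TTTGAA). The 120 bases just before the annotated start of 4 mitotic genes are shown because these members moved together, from RefSeq on GRCm38.p6, 5′ to 3′ on the strand of the gene, with both motifs, on either strand, in capitals.
Ccnb1 (chr13:100786487-100786606, minus strand): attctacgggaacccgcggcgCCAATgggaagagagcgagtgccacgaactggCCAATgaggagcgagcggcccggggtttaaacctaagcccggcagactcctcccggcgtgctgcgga
Cdk1 (chr10:69352913-69353032, minus strand): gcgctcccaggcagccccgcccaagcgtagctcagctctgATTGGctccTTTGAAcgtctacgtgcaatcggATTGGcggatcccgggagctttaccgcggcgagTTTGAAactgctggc
Plk1 (chr7:122159315-122159434, plus strand): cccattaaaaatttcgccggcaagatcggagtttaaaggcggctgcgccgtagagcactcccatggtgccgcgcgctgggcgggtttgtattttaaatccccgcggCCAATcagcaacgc
Ccnb2 (chr9:70421555-70421674, minus strand): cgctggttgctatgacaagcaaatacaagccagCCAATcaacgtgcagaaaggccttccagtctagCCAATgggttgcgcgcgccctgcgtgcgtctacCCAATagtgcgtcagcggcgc

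Each of the 4 stretches holds at least 1 CCAAT box, and that of Cdk1 holds 2 CHR matches. In the 250 bases before the start, CCAAT on either strand was present in 19 of 23 promoters of the 22 mitotic genes that matched the promoter table (82.6%), against 33.8% of all 32851 promoters. TTTGAA was present in 39.1% against 16%, and the E2F-type motif GCGGGAA in 0 mitotic and 8 of 23 replication gene promoters, against 3.82% of all. Over all genes called higher between severe and moderate muscle, TTTGAA was in 12.5% and CCAAT in 35.4% of promoters, and over those not called in 10.9% and 34.3%. A match describes these letters only, and no binding was measured.

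The opposite movement of the embryonic and the adult fast myosin heavy chain can be set beside their promoters, which lie in a cluster of myosin genes on chromosome 11. The same 120 bases before the RefSeq start are given. For Myh4 this start lies upstream of the gene position given above, and for Myh3 it matches. The TATA box (TATAAA, on the strand of the gene) and the E-box bound by myogenic factors (CAGCTG, which reads the same on both strands) are in capitals.
Myh3 (chr11:67078180-67078299, plus strand): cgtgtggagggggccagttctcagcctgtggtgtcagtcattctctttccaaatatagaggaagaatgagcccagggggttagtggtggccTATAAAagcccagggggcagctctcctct
Myh4 (chr11:67237692-67237811, plus strand): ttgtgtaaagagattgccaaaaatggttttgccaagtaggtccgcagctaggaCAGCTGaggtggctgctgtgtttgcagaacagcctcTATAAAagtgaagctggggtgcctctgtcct
Both hold a TATA box, which 7.59% of all promoters and 4.21% of promoters of genes tested hold within 250 bases. This E-box form is present in the stretch of Myh4, the gene that fell, and not in that of Myh3, the gene that rose. It occurs in 13% of all promoters.

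Macrophage genes rose in 22 of 24 cases and fell in 0, with a median log2 fold change of 1.24 (with library size alone, 24 rose). Adgre1, the surface marker F4/80, measured 47.5, 33.4 and 36 CPM in the moderate and 102, 85.8 and 99.3 CPM in the severe mice (log2 fold change 1.30, standard error 0.14, edgeR adjusted p = 1.1e-05), and Cd68 41.9, 31.1 and 30.02 CPM in the moderate and 76.6, 69 and 80.7 CPM in the severe mice. Gpnmb, a glycoprotein of phagocytic and repair macrophages, rose from 39.2, 37.8 and 39.5 CPM to 128, 109.9 and 110.0 CPM (log2 fold change 1.58, standard error 0.15, edgeR adjusted p = 3.1e-06). Spp1, osteopontin, rose from 41.1, 40.7 and 34.7 CPM to 209, 151 and 129 CPM and C1qb, a complement subunit that macrophages make, from 73.5, 52 and 55.4 CPM to 161, 141 and 145 CPM. The members not called were Arg1 (log2 fold change 1.24, edgeR adjusted p = 0.098) and Ccr2, the receptor of recruited monocytes (log2 fold change 0.47). Control means of Adgre1 and Gpnmb were 7.0 and 4.52 CPM. The list took 0.182, 0.142 and 0.152% of all counts in the moderate and 0.600, 0.499 and 0.491% in the severe mice.

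Lysosomal genes, many of which macrophages express at high levels, were higher in 18 of 26 cases (with library size alone, 23, and 0 lower) and lower in 1 (Tfeb, the factor that drives lysosomal genes, log2 fold change -0.97). Ctss, cathepsin S of macrophages, rose from 114, 72 and 96.1 CPM to 298, 238 and 249.99 CPM (log2 fold change 1.48, standard error 0.14, edgeR adjusted p = 3.1e-06). Lamp1, a lysosomal membrane protein of all cells, measured 394, 358 and 391 CPM in the moderate and 293, 329 and 349 CPM in the severe mice, with a log2 fold change of -0.23 (95% interval -0.45 to -0.02).

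Among chemokines and cytokines, 11 of 23 were higher and 1 lower (with library size alone, 18 higher and 0 lower). Cxcl16 rose from 9.72, 6.10 and 7.51 CPM to 34.2, 20.6 and 22.8 CPM (log2 fold change 1.73, standard error 0.20, edgeR adjusted p = 1.4e-05), and Ccl12, Osm and Ccl3 had log2 fold changes of 1.56, 1.55 and 1.46. Ccl2, the monocyte attractant, measured 5.65, 4.41 and 3.13 CPM in the moderate and 6.63, 7.08 and 4.64 CPM in the severe mice, which overlapped (log2 fold change 0.47, 95% interval -0.20 to 1.15). Il6 stayed at or below 0.379 CPM in all 6 mice, and Cxcl1, a neutrophil attractant, was lower (log2 fold change -1.40), a call lost without moderate mouse 1236 or 1308 or severe mouse 1066 or 1079, which left 0 members lower.

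Interferon-stimulated genes were higher in 15 of 23 cases and lower in 0 (with library size alone, 23 higher and 0 lower), and between 12 and 18 were higher in fits that left out 1 mouse. Rsad2, viperin, measured 9.37, 5.69 and 5.48 CPM in the moderate and 22.4, 18.8 and 23 CPM in the severe mice (log2 fold change 1.64, standard error 0.17, edgeR adjusted p = 5.2e-06). Mx1 rose from 3.502, 1.59 and 1.63 CPM to 6.63, 5.05 and 5.0 CPM, moderate mouse 1236 being nearest to the severe mice. Isg15 remained low at 1.36, 0.828 and 0.620 CPM in the moderate and 2.57, 1.53 and 1.64 CPM in the severe mice, and its call was lost without moderate mouse 1308, moderate mouse 1331 or severe mouse 1047 (edgeR adjusted p up to 0.095). Gbp2, a guanylate-binding protein of this response, was not called (log2 fold change 0.08).

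Of 16 antigen presentation genes tested, 7 rose and 0 fell (with library size alone, 12 higher and 0 lower). All 7 that rose were of the class I pathway: B2m, H2-D1, H2-K1, Tap1, Psmb8, Psmb9 and Nlrc5, at log2 fold changes of 0.61 to 0.98. Nlrc5, the class I transactivator, measured 5.36, 4.0 and 3.85 CPM in the moderate and 10.6, 8.42 and 7.08 CPM in the severe mice (log2 fold change 0.98, standard error 0.20, edgeR adjusted p = 0.0012). The class II genes H2-Aa, H2-Ab1, H2-Eb1 and the invariant chain Cd74 had log2 fold changes of -0.47 to -0.37 and were not called, and the difference between the classes was not tested. H2-Ab1 measured 53.1, 35.3 and 41.9 CPM in the moderate and 29.8, 31.5 and 35.4 CPM in the severe mice, and it was called lower without moderate mouse 1308 and without severe mouse 1079. Between 0 and 3 members were called lower in fits that left out 1 mouse, with 3 without moderate mouse 1308, 2 without severe mouse 1079 and 1 without moderate mouse 1331.

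Complement genes were higher in 7 of 19 cases, among them the C1q subunits and the receptor C3ar1 (15.6, 11.6 and 15.1 CPM in the moderate and 42.1, 39.1 and 36.5 CPM in the severe mice), and lower in 2, the regulators Cd55 and Cd59a (log2 fold changes -1.29 and -0.95). With library size alone 13 were higher and 1 lower. C3, the central component, measured 211, 210.3 and 220.0 CPM in the moderate and 186, 262 and 189 CPM in the severe mice. Its log2 fold change of -0.01 (95% interval -0.35 to 0.33) became 0.69 and was called with library size alone.

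Other white blood cell markers were low. Of 12 neutrophil genes 7 passed the filter on low counts, and 4 were higher (with library size alone, 7), but the count ranged from 2 (without moderate mouse 1308, and without 1331) to 6 (without moderate mouse 1236). S100a8, a calcium-binding protein of neutrophils, measured 0.599, 0.345 and 0.261 CPM in the moderate and 0.744, 0.991 and 0.773 CPM in the severe mice. Of 19 lymphocyte genes only 7 passed the filter on low counts, 1 being higher and 1 lower (with library size alone, 3 higher and 1 lower). Cd3e, which defines T cells, was at or below 0.126 CPM in all 6 mice. Cd4, which macrophages can also express, rose from 0.663, 0.207 and 0.457 CPM to 2.75, 1.96 and 3.33 CPM (log2 fold change 2.57, standard error 0.38, edgeR adjusted p = 8.4e-05), and Ighm fell as described above.

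Matrix genes rose. Of 29 fibrillar collagen and matrix genes, 17 were higher and 0 lower (with library size alone, 27 higher and 0 lower). Without severe mouse 1047, 8 were higher, without moderate mouse 1331, 10, and without control mouse 1349, which belongs to neither group, 22. Postn, periostin, measured 232, 145 and 185 CPM in the moderate and 928, 600.1 and 852 CPM in the severe mice (log2 fold change 2.08, standard error 0.38, edgeR adjusted p = 0.0011), against a control mean of 13.1 CPM. Col3a1, the type III collagen chain, rose from 1708, 1592 and 1483 CPM to 3429.8, 2909.5 and 3046 CPM (log2 fold change 0.97, standard error 0.30, edgeR adjusted p = 0.016), and its call was lost without severe mouse 1047 and without moderate mouse 1331 (edgeR adjusted p up to 0.093). Col1a1, the type I chain, measured 273, 419 and 371 CPM in the moderate and 1225, 557 and 625 CPM in the severe mice. The groups did not overlap, but severe mouse 1047 was far above the other two and the gene was not called (log2 fold change 1.18, 95% interval -0.50 to 2.86, edgeR adjusted p = 0.22), except when control mouse 1349 was left out (edgeR adjusted p = 0.030). Fn1, fibronectin, rose from 329, 377 and 316 CPM to 788, 436 and 516 CPM, and its call was lost without severe mouse 1047 or without moderate mouse 1236 or 1331. The list took 0.688, 0.690 and 0.600% of all counts in the moderate and 2.51, 1.75 and 1.81% in the severe mice.

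Matrix proteases and their inhibitors were higher in 10 of 18 cases and lower in 2 (with library size alone, 14 higher and 0 lower). Mmp14, a membrane-bound protease, rose from 24.5, 20.6 and 17.6 CPM to 69.4, 47.3 and 45.9 CPM (log2 fold change 1.37, standard error 0.25, edgeR adjusted p = 0.00082) and Timp1, a protease inhibitor, from 19.2, 15.8 and 11.1 CPM to 37.1, 38.8 and 35.4 CPM (log2 fold change 1.27, standard error 0.20, edgeR adjusted p = 0.00020). Timp3 and Adamts1 were lower (log2 fold changes -1.04 and -0.99).

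Markers of fibroblasts and fibro-adipogenic progenitors had 3 higher and 7 lower of 18 (with library size alone, 8 higher and 1 lower). With TMM, 16.7% were higher, near the 17.6% of all genes tested, and 38.9% lower, against 18.8%. Pdgfra, their defining receptor, measured 86.9, 76 and 87.4 CPM in the moderate and 90.2, 92.6 and 96.6 CPM in the severe mice. Although the groups did not overlap, its log2 fold change was 0.16 (95% interval -0.07 to 0.39). Clec3b and Gsn fell, from 5.77, 8.52 and 7.11 CPM to 3.61, 2.64 and 2.63 CPM and from 988, 995 and 1061 CPM to 370.4, 646 and 528 CPM. Tendon genes were lower in 4 of 9 cases and higher in 1, Scx, the tendon progenitor factor (log2 fold change 1.61), and with library size alone 1 was lower and 2 were higher. Only 1 was lower without moderate mouse 1308, without moderate mouse 1331, without severe mouse 1047 or without severe mouse 1079, and 2 without severe mouse 1066. Tnmd, tenomodulin, a membrane protein of tendon cells, had levels of 4.39, 8.48 and 5.78 CPM in the moderate and 3.36, 2.64 and 3.02 CPM in the severe mice.

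Vessel and nerve markers depended on the scaling. Endothelial genes were lower in 13 of 20 cases with TMM, with a median log2 fold change of -0.60, but with library size alone the median was 0.09 and 2 were lower and 3 higher. Kdr, the receptor VEGFR2, fell from 17.1, 21.9 and 13.8 CPM to 6.27, 8.02 and 7.66 CPM and kept its call with library size alone (log2 fold change -0.57). The list also counts Vegfa, the ligand, which muscle fibers make. Vegfa fell from 55.1, 70.3 and 43.7 CPM to 9.69, 18.7 and 17 CPM (log2 fold change -1.90, standard error 0.26, edgeR adjusted p = 0.00012). Pecam1, the general endothelial marker CD31, measured 38.9, 43.3 and 37.4 CPM in the moderate and 28.7, 34.1 and 34.4 CPM in the severe mice and was not called (log2 fold change -0.30, and 0.39 with library size alone).

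Smooth muscle and pericyte genes were split, 3 higher and 6 lower of 12 (with library size alone, 5 higher and 2 lower). Their median log2 fold change of -0.68 became 0.01 with library size alone. The lower genes include Des, which is also counted among the myogenic regulators and fusion genes above. Myh11, smooth muscle myosin, fell from 59.2, 75.7 and 66.3 CPM to 10.1, 17.6 and 17.5 CPM (log2 fold change -2.16, standard error 0.24, edgeR adjusted p = 2.9e-05), while Acta2, smooth muscle alpha-actin, which activated fibroblasts and developing muscle also express, rose from 49.8, 37.3 and 35.6 CPM to 143, 91.7 and 122 CPM (log2 fold change 1.54, standard error 0.23, edgeR adjusted p = 0.00019). Schwann cell genes were lower in 6 of 10 cases, but in 2 with library size alone, in 2 without moderate mouse 1308, and in 3 without severe mouse 1047. Pmp2, a myelin protein, had 0 counts in all severe mice and 0.347, 1.55 and 0.261 CPM in the moderate mice.

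Adipocyte genes had a median log2 fold change of -0.66, and of 0.04 with library size alone, and were lower in 2 of 10 cases, Scd1, stearoyl-CoA desaturase (89.2, 179.6 and 173 CPM in the moderate and 29.9, 53.1 and 26.1 CPM in the severe mice), and Pparg, the adipocyte regulator (log2 fold change -0.66, and 0.03 with library size alone). The share called lower with TMM was near that of all genes tested (20% against 18.8%). With library size alone 1 was lower. Without severe mouse 1066, 7 were lower, and without moderate mouse 1236 or 1308 or severe mouse 1047, 1 was. Adipoq, adiponectin, measured 6.06, 16.1 and 11.3 CPM in the moderate and 4.78, 11.5 and 4.88 CPM in the severe mice, which overlapped. All 5 erythroid genes tested fell with either scaling, among them Hbb-bs, the beta-globin, from 72.6, 150.4 and 86.7 CPM to 15.6, 13.5 and 34.5 CPM. The globin genes are near-identical copies whose reads may be divided between them.

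Genes of oxidative phosphorylation encoded in the nucleus fell in all 44 of 44 cases with TMM, at log2 fold changes between -1.38 and -0.68. With library size alone the median of -1.04 became -0.35 and 9 were called lower. Ndufb5, a complex I subunit, measured 181, 188 and 193 CPM in the moderate and 51.3, 78.5 and 85 CPM in the severe mice (log2 fold change -1.38, standard error 0.16, edgeR adjusted p = 1.4e-05), and Atp5b, the catalytic subunit of ATP synthase, 1528, 1572 and 1619.7 CPM in the moderate and 664, 873 and 933 CPM in the severe mice (log2 fold change -0.93, standard error 0.15, edgeR adjusted p = 0.00020). The muscle isoforms Cox6a2 and Cox7a1, which are not on this list, fell as well: Cox6a2 from 124, 183 and 131 CPM to 19.8, 34.7 and 37.9 CPM (log2 fold change -2.24, standard error 0.22, edgeR adjusted p = 6.4e-06) and Cox7a1 from 196, 246 and 185 CPM to 28.1, 48.6 and 63.7 CPM (log2 fold change -2.16, standard error 0.30, edgeR adjusted p = 0.00012). The 13 protein genes of the mitochondrial genome were all lower with TMM (median -1.57) and 12 with library size alone. mt-Nd2, a complex I subunit, had 617, 837 and 710.0 CPM in the moderate and 191, 215 and 209 CPM in the severe mice (log2 fold change -1.82, standard error 0.17, edgeR adjusted p = 2.9e-06). All genes of the mitochondrial genome together took 26.6, 29.096 and 27.7% of all counts in the moderate and 19.2, 20.5 and 19.9% in the severe mice.

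Glycolysis and glycogen genes were lower in 22 of 24 cases and higher in 1 (with library size alone, 16 lower and 1 higher). Pygm, muscle glycogen phosphorylase, fell from 2048, 2120.5 and 2585 CPM to 297, 586 and 539.7 CPM (log2 fold change -2.25, standard error 0.23, edgeR adjusted p = 5.6e-06), and Phkg1, the catalytic subunit of phosphorylase kinase, from 110.3, 120.4 and 133 CPM to 9.47, 16.9 and 20.4 CPM. Hk1, the hexokinase of most tissues, was the member that rose, from 16, 15.1 and 15.6 CPM to 26.7, 28.2 and 24.3 CPM (log2 fold change 0.76, standard error 0.09, edgeR adjusted p = 1.2e-05), while Hk2, the hexokinase of muscle, fell from 79.1, 126 and 109 CPM to 28.5, 49.6 and 36 CPM. Genes of fatty acid oxidation were lower in 18 of 24 cases with TMM and in 2 with library size alone, where 1 was higher. Perm1, a muscle regulator of mitochondrial genes, fell from 36, 56.3 and 38.3 CPM to 2.71, 5.26 and 4.73 CPM (log2 fold change -3.36, standard error 0.33, edgeR adjusted p = 1.8e-05). Ppargc1a, PGC-1 alpha, measured 37.2, 33.2 and 43.5 CPM in the moderate and 19.9, 30.2 and 26.1 CPM in the severe mice, and its log2 fold change of -0.58 turned to 0.11 with library size alone and lost its call without severe mouse 1047 or moderate mouse 1331.

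Among genes of stress and cell death, p53 targets were called with TMM at shares near those of all genes tested (17.6% higher and 18.8% lower). Of 20 targets, 4 were higher (20%) and 5 lower (25%) with TMM, with a median log2 fold change of -0.07. With library size alone, 11 were higher and 3 lower, with a median of 0.63. Under that scaling 57.8% of all genes tested were higher and 4.93% lower. Cdkn1a, the cell cycle inhibitor p21, measured 9.87, 8.79 and 10.48 CPM in the moderate and 16.5, 11.9 and 13.3 CPM in the severe mice. Its log2 fold change of 0.52 ± 0.20 was close to the threshold (edgeR adjusted p = 0.043) and lost its call in 5 of 12 fits with 1 mouse left out, each of moderate 1236, 1308 and 1331 and severe 1047 and 1079. Mdm2, the p53 inhibitor, measured 50.1, 53.5 and 49.99 CPM in the moderate and 33.8, 40.1 and 41.1 CPM in the severe mice (log2 fold change -0.42, below the fold threshold, and 0.27 with library size alone). BCL2 family and caspase genes were higher in 10 of 21 cases and lower in 0 (with library size alone, 18 higher and 0 lower). Casp8, the caspase of death receptors, rose from 8.39, 8.07 and 6.75 CPM to 16.5, 16.3 and 14.5 CPM (log2 fold change 1.03, standard error 0.12, edgeR adjusted p = 1.8e-05), and Bcl2l11, the BH3-only gene Bim, from 5.17, 3.83 and 5.12 CPM to 11.5, 8.16 and 9.11 CPM. Bax and Bcl2 were not called (log2 fold changes 0.19 and -0.36).

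Genes of the unfolded protein and integrated stress responses were higher in 4 and lower in 4 of 22 cases with TMM, and higher in 12 and lower in 1 with library size alone. With TMM each share was 18.2%, near the shares of all genes tested. Enzymes of serine and asparagine synthesis rose, Psat1 from 14.8, 11.7 and 14.5 CPM to 39.4, 38 and 34.5 CPM (log2 fold change 1.45, standard error 0.13, edgeR adjusted p = 1.8e-06) and Asns and Phgdh by log2 fold changes of 1.01 and 0.68. Ddit3, the stress factor CHOP, fell from 7.82, 8.55 and 6.92 CPM to 3.40, 4.32 and 4.15 CPM with TMM (log2 fold change -0.97, standard error 0.19, edgeR adjusted p = 0.00068), and Atf4 measured 68.9, 71.7 and 65.7 CPM in the moderate and 48.1, 51.6 and 52 CPM in the severe mice and was below the fold threshold. Hspa5, the chaperone BiP, had a log2 fold change of 0.00 (95% interval -0.20 to 0.20). Among 20 oxidative stress genes, 6 fell and 2 rose with TMM, but 1 fell and 12 rose with library size alone, where 57.8% of all genes tested rose. Nqo1 measured 55.7, 44.3 and 49.1 CPM in the moderate and 15.9, 27.5 and 22.4 CPM in the severe mice, and both models were above the control mean of 13.2 CPM. Hmox1, heme oxygenase 1, rose from 8.14, 8.17 and 8.88 CPM to 18, 17.9 and 16.3 CPM (log2 fold change 1.05, standard error 0.09, edgeR adjusted p = 1.8e-06).

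Atrophy genes were lower in 7 of 16 cases and higher in 0 (with library size alone, 5 lower and 6 higher). The muscle ubiquitin ligases Fbxo32 (atrogin-1) and Trim63 (MuRF1) fell from 45.7, 38.6 and 54.1 CPM to 10.1, 13.7 and 17.4 CPM and from 127, 99.2 and 163 CPM to 34.5, 58.7 and 62.5 CPM (log2 fold change -1.32, standard error 0.22, edgeR adjusted p = 0.00032). Mstn, myostatin, fell from 5.49, 7.10 and 10.1 CPM to 2.32, 2.92 and 2.68 CPM, with a control mean of 63.8 CPM. Of 31 proteasome genes 4 were lower with TMM (5 without moderate mouse 1308, 4 without severe mouse 1066, 6 without severe mouse 1079, and 2 in each of the other 9 fits that left out 1 mouse), and 10 were higher with library size alone. Ribosomal protein genes had a median log2 fold change of 0.19. With TMM 4 of 46 were higher (4 to 7 with 1 mouse left out, the most without moderate mouse 1331). With library size alone 45 were higher. With TMM, 12.9% of proteasome genes were lower (18.8% of all genes tested) and 8.70% of ribosomal protein genes higher (17.6% of all). Rplp0 measured 510.2, 504 and 493 CPM in the moderate and 513, 511 and 543 CPM in the severe mice (95% interval of the log2 fold change -0.14 to 0.26). Rpl3 rose with either scaling, from 176, 151 and 168 CPM to 361, 316 and 335 CPM (log2 fold change 1.03, standard error 0.10, edgeR adjusted p = 3.1e-06). Among 17 immediate-early genes, 2 fell (Nr4a1 and Dusp1) and 1 rose (Fosl1), and with library size alone 2 fell and 7 rose. The TMM shares were 11.8% lower and 5.88% higher, below the 18.8% and 17.6% of all genes tested. Fos ranged widely among moderate mice at 17.5, 37.6 and 6.66 CPM, against 7.35, 10.8 and 6.43 CPM in severe mice, and was called lower without moderate mouse 1331 and in no other such fit.

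**Figure D5:**
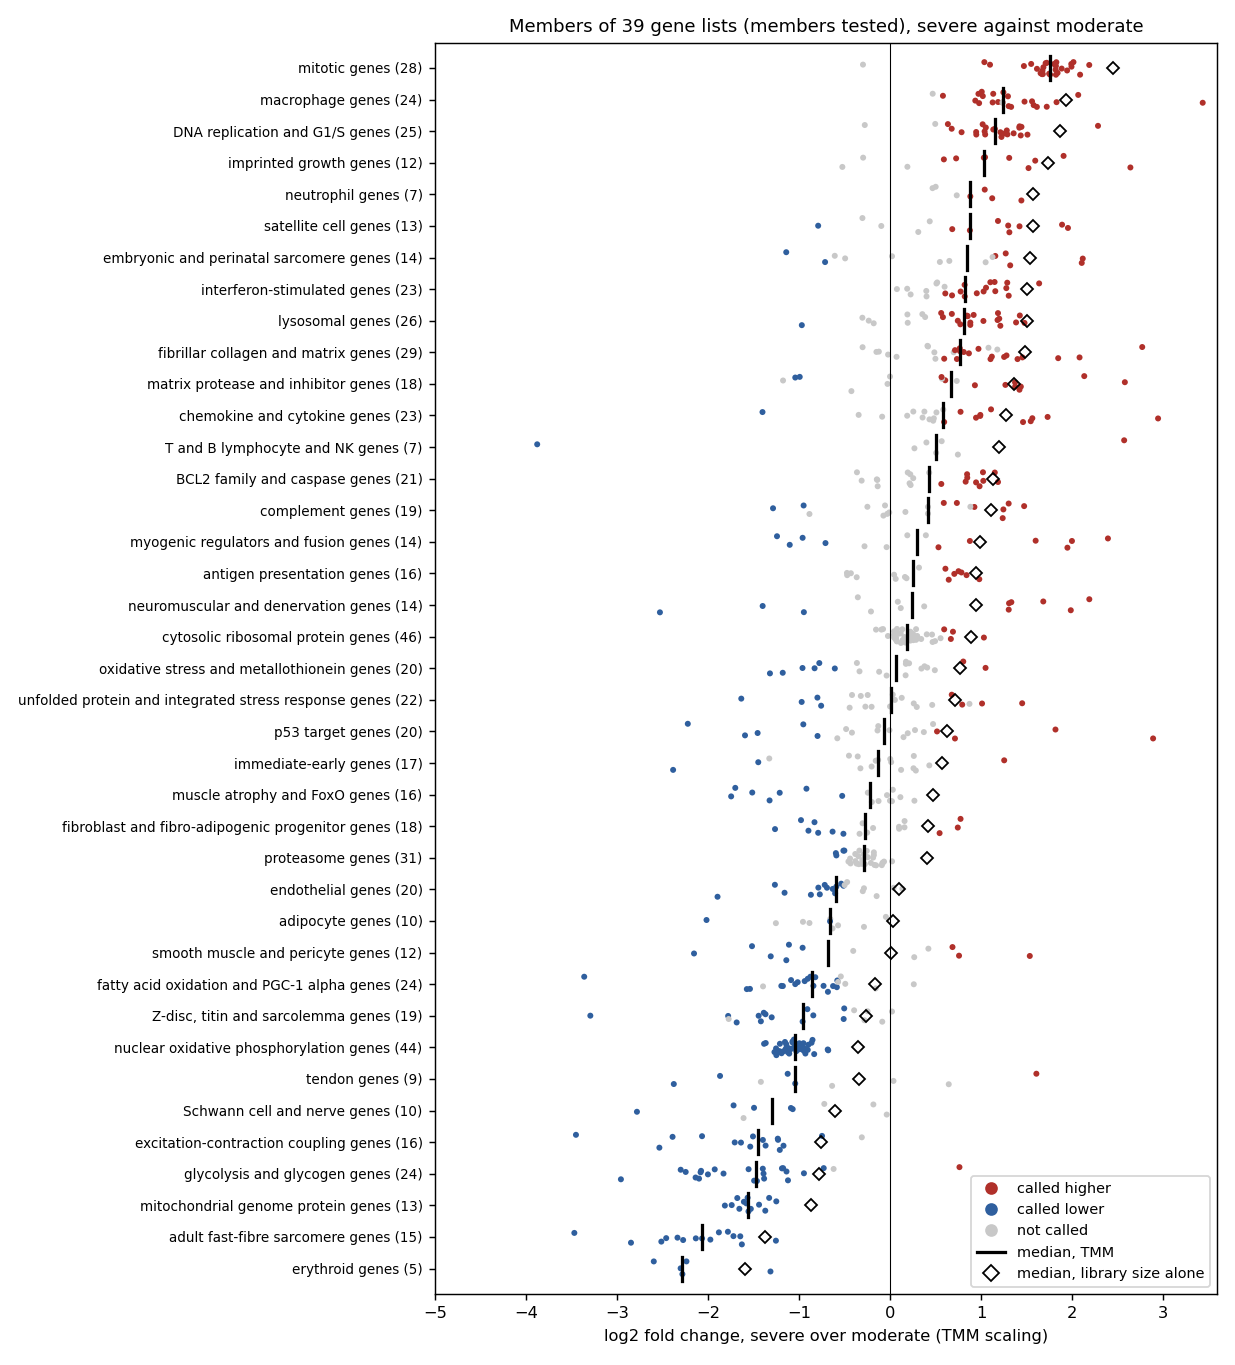
Log2 fold change of severe over moderate muscle for each tested member of 39 gene lists (rows, number tested in brackets), red where called higher, blue where called lower and grey where not called. Black bars mark the list median with TMM and diamonds the median with library size alone, which lies further to the right in every list. Mitotic, macrophage and replication genes lie to the right of 0 and adult fast-fiber, glycolysis and mitochondrial genes to the left with both medians. Pmp2, of the Schwann cell list, lies outside the axis.

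The list closest to DUX4 held few detectable genes. DUX4 itself was not analysed here. Wfdc3, a target that human DUX4 activates in mouse muscle, lay far above the control mean of 0.228 CPM in both models, at 91.8, 69.1 and 68 CPM in the moderate and 62.6, 84.3 and 116 CPM in the severe mice. The groups overlapped, with a log2 fold change of 0.20 (95% interval -0.28 to 0.68, edgeR adjusted p = 0.48) with TMM and 0.88 (edgeR adjusted p = 0.0028) with library size alone, where it was called. Trim36, another target, measured 1.36, 1.59 and 1.73 CPM in the moderate and 2.95, 2.08 and 1.93 CPM in the severe mice (log2 fold change 0.58, standard error 0.21, edgeR adjusted p = 0.037), and its call was lost without severe mouse 1047 or without moderate mouse 1236 or 1308. Of the 17 genes of this list, 5 passed the filter on low counts, 2 being higher and 0 lower (with library size alone, 3 higher and 0 lower), and cleavage-stage genes such as Zscan4c were not among them. Sp110, a nuclear body protein gene, rose from 5.65, 3.28 and 2.58 CPM to 8.45, 7.92 and 6.81 CPM (log2 fold change 1.01, standard error 0.22, edgeR adjusted p = 0.0015). Esr1, whose sequence the MerCreMer transgene carries, fell from 95.9, 113 and 124 CPM to 35.2, 37.4 and 35.6 CPM with TMM (log2 fold change -1.62, standard error 0.20, edgeR adjusted p = 3.3e-05). Its mean was 652 CPM in the control mice, which carry ACTA1-MCM, and 31.7 CPM in the FLExD mice, which do not. Per 1000000 counts without the TMM factors, Esr1 measured 109, 122 and 131 in the moderate and 65.7, 65.3 and 60.4 in the severe mice, with means of 467 in the control and 23.1 in the FLExD mice. Severe muscle was therefore below moderate muscle on both scales, and close to FLExD muscle on the TMM scale only.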

How the data were processed

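RNA from the gastrocnemius of 12 mice was sequenced after poly(A) selection, with 1 library per mouse. The authors trimmed the reads, mapped them with RSEM 1.2.4, which called Bowtie, and with TopHat2 2.0.8b to a merged mm10 annotation, and deposited expected counts per gene. The TPM values were also made by the authors. Each TPM column sums to the same total, so no scaling between libraries is included. Expected counts, rounded to integers, were fitted with edgeR 4.0.16 in R 4.3.3. Genes were kept by filterByExpr, libraries were scaled by TMM, and 1 robust quasi-likelihood fit of 4 groups gave the contrast of severe minus moderate. Calls needed a Benjamini-Hochberg adjusted p under 0.05 together with a log2 fold change of 0.5 or more in either direction, and standard errors were derived from the F statistic. The p-values rest on the spread between mice within all 4 groups, with 3 mice per group, and this spread is moderated by that of other genes. Totals of 23796902 to 28917274 counts per mouse limit precision for rare genes, and floors of 3 counts cover counting error only.

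Genes were named if they were marked as leading members of a list, were among up to 2 further members of a list with the largest change, were among the 10 higher or 10 lower genes with the largest log2 fold change (called, groups not overlapping, and averaging 50 or more counts in the group with more), or belonged to a gene pair. Further list members were named as examples after their values were seen. The members and the 43 lists were chosen with earlier results of these data known. Lists are described by counts and medians, not tested. The fit was tested on simulated data for severe versus moderate (15624 genes), where it recovered 69 of 90 genes changed 2-fold and 87 of 95 changed 4-fold, with 15 false calls. In that simulation 200 genes were changed, and every other gene kept the mean level of moderate muscle in all libraries. It therefore does not bear on the shift in library composition or on the choice of scaling. Promoter sequences came from RefSeq (GRCm38.p6) and were searched over 250 bases before the start. Gene positions are those of GRCm38. Alternatives were DESeq2 1.42.0, limma 3.58.1 on log2(TPM + 1), other scalings, filters and thresholds, and leaving out each mouse in turn. A few genes, which stay in the fits and counts, are not reported here by name.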

Additional observations from a re-analysis of the deposited data

How the results depend on the processing

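Scaling moved the results most. Against 2943 higher and 3139 lower genes in severe muscle, library size alone gave 9648 and 823, library size without 20 genes gave 5357 and 1826, limma on log2(TPM + 1) gave 8034 and 629, and a fold threshold of 1 on the log2 scale gave 1356 and 1391. Leaving out 1 mouse gave 2300 to 3111 higher and 2572 to 3258 lower genes. Median-of-ratios factors kept the call of all 208 named genes, upper-quartile factors of 202, DESeq2 of 205 and library size alone of 175. Over the fits without 1 mouse, 81 calls of a named gene were lost, 17 were gained and 2398 did not change. Of the 208 named genes, 14 went from below to above 0 with library size alone and 14 with limma on log2(TPM + 1), and none went the other way. Those called in at least 1 of the fits compared were 6 under each: C3 to 0.69 and 0.66, Pparg to 0.0288 and 0.0401, Ppargc1a to 0.11 and 0.16, Psmb7 to 0.10 and 0.11, Psmd12 to 0.10 and 0.11, and Psmd4 to 0.18 and 0.14. Under the same settings the median of the endothelial genes became 0.0946 and 0.129 and that of the smooth muscle and pericyte genes 0.0110 and 0.0369, and the median of the adipocyte genes became 0.0365 with library size alone. In all, 10 of 43 list medians went from below to above 0 with library size alone and 9 with limma, among them those of the p53 targets (-0.07 to 0.63 with library size alone), the immediate-early genes (-0.13 to 0.57), the atrophy genes (-0.22 to 0.47), the fibroblast and fibro-adipogenic progenitor genes (-0.28 to 0.42) and the proteasome genes (-0.29 to 0.41). The median of all genes was 0.02 with TMM, 0.72 with library size alone and 0.49 with limma, which also differs in its test and in the pseudocount. With at least 10 counts in all 6 mice, the median of the T and B lymphocyte and NK genes became -3.86, where 1 of its genes passed. With counts in place of TPM, 1 of 29 ratios was lower in every severe mouse, Gys2/Gys1 at -0.49, where Gys2 had 0 counts in severe muscle. The count of 28 ratios higher in every severe mouse did not change when 1 mouse was left out. No paired analysis was possible because mouse numbers are not shared between groups. The 3 mice per group limit all tests, intervals of variable genes such as Col1a1 span both directions, and genes under the filter on low counts were not tested.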

Other observations

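Among transcript classes, small nucleolar RNAs, which guide the modification of ribosomal RNA, were called lower in severe than in moderate muscle in 26 of 116 cases (22.4%) and higher in 5 (4.31%), against 19.7% lower and 18.7% higher of 14200 protein-coding genes. Most of these RNAs lie within introns of other genes and lack a poly(A) tail, and reads of the host gene and of the small RNA cannot be told apart here. Of 426 lincRNAs, 69 were higher and 62 lower. Of 57 microRNA genes, 6 were higher and 1 was lower, where reads of a precursor and of its host transcript cannot be told apart either.

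A full-length MEF2 motif, which muscle transcription factors of this family bind, was present within 250 bases before the start in 33 of 2990 promoters of genes called lower (1.10%), in 12 of 2708 of genes called higher (0.443%) and in 24 of 9294 of genes tested and not called (0.258%). The DUX4 motif was present in 2 promoters of genes called lower (0.0669%), 2 of genes called higher (0.0739%) and 6 of genes not called (0.0646%). These shares describe the letters in the window, were not tested, and say nothing of binding.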
